A study of Mus musculus with 18 samples.

Results

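The RNA of 10 genes that move calcium across the membrane of the endoplasmic reticulum (ER) and the plasma membrane was followed in mouse pancreatic tumour cell lines with and without Mcu, the pore gene of the mitochondrial calcium uniporter. The genes were taken by symbol from the deposited expression table, and all 10 were found among its 35642 gene symbols. They are the inositol trisphosphate (IP3) receptors Itpr1, Itpr2 and Itpr3, the ER pumps Atp2a2 and Atp2a3, the plasma membrane pumps Atp2b1 and Atp2b4, and the store-operated entry genes Stim1, Stim2 and Orai1. The lines, 1151 and 2838, came from tumours of KPCY mice. These mice carry, among their alleles, Trp53 R172H behind a loxP-stop-loxP cassette, with Pdx1-Cre, which acts in pancreatic epithelium, and a Cre-activated Yfp reporter at R26. Line 1151 had lost Mcu through Cre recombinase per the labels. Its knockout-labelled cells carried an empty vector, and its other group re-expressed MCU, with puromycin selection kept on. Line 2838 was given as the empty-vector clones 15 and 22, labelled wild type for Mcu, and as the clones 17 and 42, labelled CRISPR knockout, for which no vector is named. Cells were untreated, each 2838 group is 1 clone, and each of the 6 groups had 3 libraries of polyA RNA, 18 in all. The labels do not name separate cultures for the libraries of 1 group. The p-values between libraries therefore measure only their own spread, which may be technical. Line 1151 is batch 1 and line 2838 is batch 2, so line and batch cannot be told apart. Tests of level were kept within 1 line.

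The ER is the main calcium store of the cell. SERCA pumps, encoded by the Atp2a genes, fill it, and IP3 receptors release its calcium when phospholipase C has made IP3, partly next to mitochondria, which take the ion up through the uniporter. PMCA pumps, encoded by the Atp2b genes, send calcium out of the cell. When the store empties, the ER membrane sensors STIM1 and STIM2 open the plasma membrane channel ORAI1, and the calcium that enters lets the store refill.

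Values are TPM, transcript abundances per length on a common total, so levels of different genes can be set side by side. Since TPM do not retain the number of reads, library depth was unknown. From 10760 to 11507 genes per library had at least 1 TPM. Mcu RNA stood at 13.1 to 16.6 TPM in all 6 libraries of 1151, whatever the label, at 59.3 to 96.3 TPM in the 2838 clones labelled wild type, at 113 to 122 TPM in clone 17 and at 10.5 to 12.3 TPM in clone 42. The RNA therefore did not follow the label in 1151 or in clone 17, and every direction below is by label. Each of 9 epithelial markers reached 1 TPM in at least 1 library, and none of 8 fibroblast markers did. The epithelial sum, mostly Krt8, Krt18 and Krt19, was 4860 to 7440 TPM. Epcam (at most 1.675 TPM) and Cldn4 (4.95 to 7.54 TPM) reached 1 TPM only in the knockout-labelled cells of 1151. Cldn7 stayed under 1 TPM in 1151 (at most 0.577 TPM). Of 8 immune markers Cd68 and Cd14 reached 1 TPM, while Cd3e was listed at 0 throughout. Their sum, nearly all Cd14, was 64.9 to 72.7 TPM in the 1151 re-expressing libraries and 32.0 to 35.01 TPM in the knockout-labelled ones, and its part in the 1151 results was not tested. The 6 endothelial markers summed to 5.65 to 6.53 TPM and 8.48 to 9.09 TPM in the same groups, with Emcn listed at 0, Cdh5 lower and Kdr higher in the knockout-labelled cells, and their part was not tested either. The 8 acinar markers, with Cpa1, Cela3b, Pnlip and Amy2a5 listed at 0, summed to at most 0.735 TPM in 1151. In 2838 their sum, nearly all Cela1, was 22.1 to 29.3 TPM in clone 15, 16.6 to 24.9 TPM in clone 22, 12.6 to 14.6 TPM in clone 17 and 9.41 to 12.6 TPM in clone 42, and its part in the differences between clones was not tested.

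Wild-type clone 22 replicate 3 stood apart and touches every 2838 value of the long genes. With genes split into 6 classes by their longest transcript, its median log2 level in the longest class lay 1.31 below the mean of the other libraries of its group (median deviation -1.31). Outside its clone, the other libraries lay within 0.159 of their groups in that class, and none lower than -0.156. The transcripts of 9 of the 10 genes, all but Orai1, are 4362 to 11725 bases long and fall in the 2 longest classes, and Orai1, at 1875 bases, falls in the second shortest. In that library Itpr1 deviated by -2.53, Itpr3 by -1.67, Atp2a2 by -1.64 and Atp2b1 by -1.61, while Stim2 (0.0034) and Orai1 (0.10) did not follow. The 2838 tests below are therefore given with and without it.

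**Figure D1:**
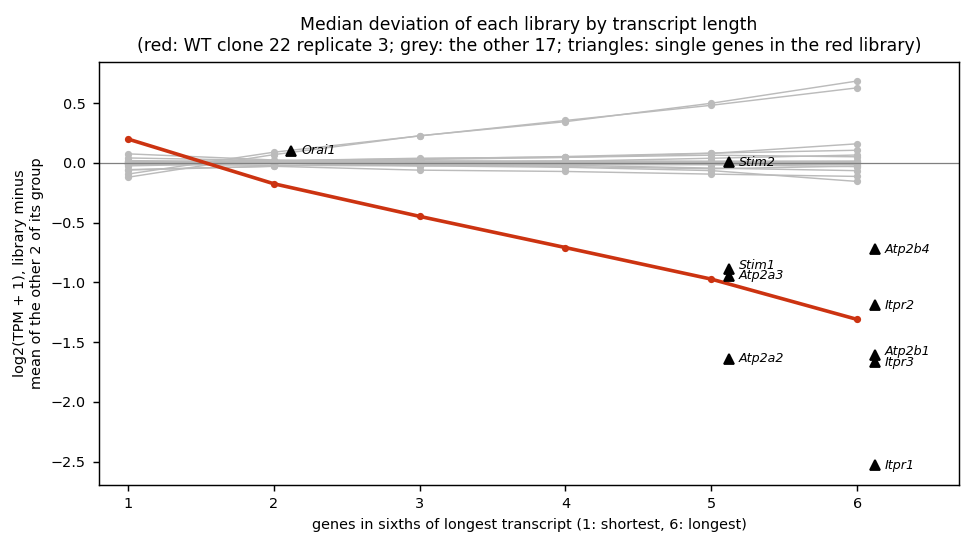
Median deviation of each library's log2(TPM + 1) values from the mean of the other libraries of its group (y axis), for genes in 6 classes of longest transcript (x axis, shortest to longest). The red line is wild-type clone 22 replicate 3, which falls to -1.31, the grey lines are the other 17 libraries, and the triangles are single calcium transport genes in the red library. The pair of grey lines that rise are the other libraries of clone 22, whose reference includes the red one.

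Promoter sequence was at hand for 8 of the 10 genes. It is shown for the pump gene that fell furthest in 1151 (Atp2a3), for the sensor gene that rose most (Stim1), and for the channel gene that fell (Orai1). Each line gives the 250 bases before the RefSeq start on GRCm38.p6 (mm10), plus strand, 5' to 3', with matches of the GC box (GGGCGG, either strand) and, in Orai1, of the CCAAT box in capitals. The windows are chr11:72960919-72961168 for Atp2a3, chr7:102267569-102267818 for Stim1 and chr5:123014824-123015073 for Orai1.
Atp2a3: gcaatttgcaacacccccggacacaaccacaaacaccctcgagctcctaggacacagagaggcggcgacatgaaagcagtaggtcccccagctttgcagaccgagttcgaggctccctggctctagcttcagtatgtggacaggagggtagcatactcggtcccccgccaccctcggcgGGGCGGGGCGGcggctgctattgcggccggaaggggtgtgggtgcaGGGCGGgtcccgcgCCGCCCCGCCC
Stim1: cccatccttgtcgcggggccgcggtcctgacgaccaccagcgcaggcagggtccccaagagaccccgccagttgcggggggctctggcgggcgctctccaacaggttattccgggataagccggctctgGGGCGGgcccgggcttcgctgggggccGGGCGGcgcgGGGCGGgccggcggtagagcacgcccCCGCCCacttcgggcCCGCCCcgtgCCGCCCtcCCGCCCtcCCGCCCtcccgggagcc
Orai1: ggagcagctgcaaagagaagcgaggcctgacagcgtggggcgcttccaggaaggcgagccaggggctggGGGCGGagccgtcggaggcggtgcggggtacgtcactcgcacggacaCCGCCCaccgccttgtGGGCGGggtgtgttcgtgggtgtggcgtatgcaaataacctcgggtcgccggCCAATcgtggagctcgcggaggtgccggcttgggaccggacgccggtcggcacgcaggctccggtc

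The 3 windows were rich in CpG, with 20, 31 and 30 CpG dinucleotides against a median of 6 over 32851 promoters, and in G and C, at 66.8%, 78.4% and 70.8% against a median of 52.4%. They held 5, 8 and 3 GC box matches, a motif found in 32.7% of all promoters, and Orai1 held 1 CCAAT match (33.8% of promoters, either strand). None held TATAAA (12.4% of promoters) or the NFAT core TGGAAA (18.6%). These are descriptions of the letters in the windows only.

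In 1151 most of the transport genes stood higher in the knockout-labelled cells, 1 ER pump was nearly absent there, and the entry channel was slightly lower. Of 9 genes tested with limma on log2(TPM + 1), 7 rose and 2 fell at an adjusted p under 0.05. This share has to be read against the whole table, in which 61% of 11630 genes were called, 34% higher and 27% lower. The median log2 change of the 9 genes was 0.51, against 0.055 for all genes tested. The 3 knockout-labelled and the 3 re-expressing libraries did not overlap for any of the 10 genes, which also held for 67.2% of all genes tested. Itpr2 was not tested, because fewer than 3 libraries reached 1 TPM, Atp2a3 passed that filter only through the re-expressing libraries, and Atp2b4 only through the knockout-labelled ones. The calls of Atp2a3 and Atp2b4, and their part in the counts and the median, therefore add no support. In bulk RNA a change in the share of cells that express a gene and a change in RNA per cell cannot be told apart.

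Among the IP3 receptors, Itpr1, the form best known from neurons, changed most. Itpr1 (chromosome 6, 108213096 to 108551109, plus strand, GENCODE M21 on mm10) read 3.54, 2.65 and 2.36 TPM in the re-expressing libraries and 12.1, 14.3 and 15.4 TPM in the knockout-labelled ones. Every knockout-labelled library was above every re-expressing one (log2 change 1.96, SE 0.14, adjusted p = 3.97e-05). Itpr3 (chromosome 17, 27057304 to 27122223, plus strand), a form prominent in secretory epithelia, was by far the more abundant receptor. Its values were 63.6, 62.05 and 61.0 TPM with MCU and 84.7, 86.3 and 93.7 TPM in the knockout-labelled cells, a log2 change of 0.50 (SE 0.057, adjusted p = 3.30e-04). Itpr2 (chromosome 6, 146108299 to 146502223, minus strand), the receptor with the highest affinity for IP3, was scarce, at 0.337, 0.345 and 0.326 TPM against 2.08, 1.64 and 0.934 TPM. Summed over the family, receptor RNA was 65.4 ± 1.89 TPM in the re-expressing and 103.7 ± 5.70 TPM in the knockout-labelled libraries (SD, n = 3 each). The make-up of the family also differed. Itpr1 made up 4.35% ± 0.809 of it with MCU and 13.4% ± 1.03 in the knockout-labelled cells, and Itpr3 95.1% ± 0.802 and 85.1% ± 0.654 (SD, n = 3 each).

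The SERCA genes moved in opposite directions. Atp2a3 encodes SERCA3, a pump of lower calcium affinity found in epithelial and blood cells, and Atp2a2 encodes the housekeeping pump SERCA2. Atp2a3 (chromosome 11, 72961169 to 72993044, plus strand) read 16.6, 16.1 and 15.3 TPM in the re-expressing libraries. It fell to 0.963, 0.497 and 0.859 TPM in the knockout-labelled ones (log2 change -3.27, SE 0.12, adjusted p = 2.66e-06). Atp2a2 (chromosome 5, 122453513 to 122502225, minus strand) rose from 142.8, 133.9 and 139.3 TPM to 185.1, 183.8 and 179.4 TPM (log2 change 0.40, SE 0.049, adjusted p = 4.64e-04). Atp2a3 thus made up 10.4% ± 0.440 of SERCA RNA with MCU and 0.421% ± 0.133 in the knockout-labelled cells (SD, n = 3 each). Total SERCA RNA was 154.7 ± 4.75 TPM and 183.6 ± 2.97 TPM. Leaving out any 1 re-expressing library put Atp2a3 under the filter, so that only Orai1 remained among the falls, while leaving out each knockout-labelled library in turn gave Atp2a3 changes of -3.35 to -3.16.

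**Figure D2:**
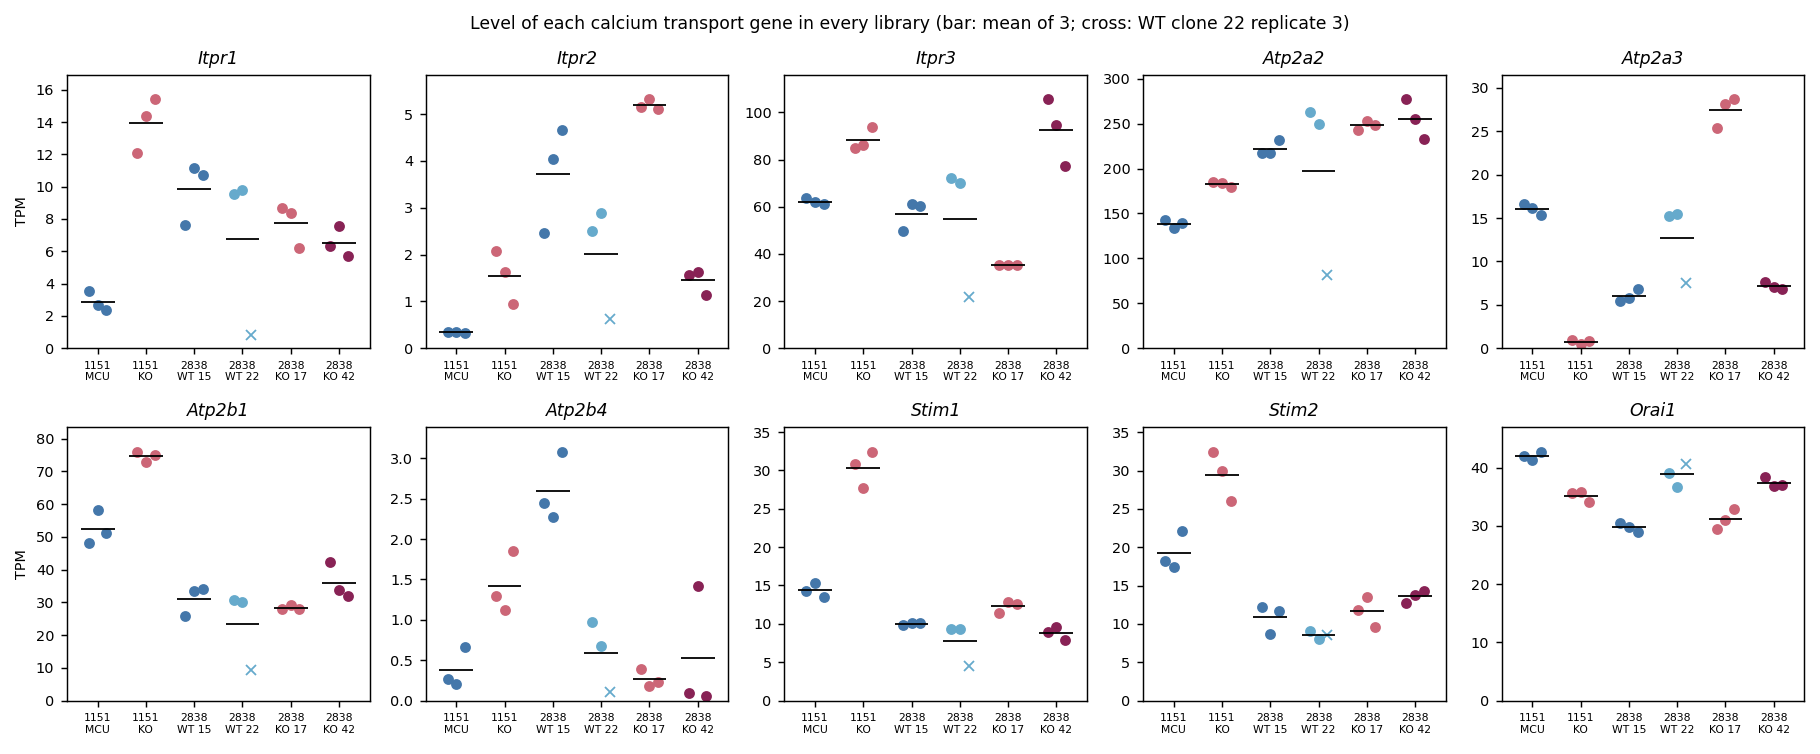
Level in TPM (y axes) of each of the 10 genes in every library, by group (x axes), with black bars for the mean of 3 libraries and a cross for wild-type clone 22 replicate 3. The 1151 groups (3 libraries against 3) separate for each gene shown, as for 67.2% of all genes tested, and the 2838 labels (6 against 6) for none, against 5.04% of all genes. For Atp2a3 the knockout-labelled clones stand apart, at 27.4 TPM in clone 17 and 7.17 TPM in clone 42.

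Both plasma membrane pumps rose. Atp2b1, the widely expressed PMCA1 (chromosome 10, 98914406 to 99026143, plus strand), read 48.0, 58.1 and 51.2 TPM with MCU and 76.0, 72.9 and 75.1 TPM in the knockout-labelled cells (log2 change 0.51, SE 0.077, adjusted p = 0.00121). Atp2b4, which encodes PMCA4 (chromosome 1, 133699457 to 133801041, minus strand), was at the edge of detection, at 0.262, 0.2 and 0.658 TPM against 1.29, 1.12 and 1.85 TPM. Its log2 change was 0.82 (SE 0.18, adjusted p = 0.00653). Without any 1 of the knockout-labelled libraries Atp2b4 fell under the filter, which left 6 genes called higher.

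In store-operated entry the sensors and the channel moved apart. Stim1, the main sensor of store depletion (chromosome 7, 102267806 to 102437319, plus strand), rose from 14.3, 15.3 and 13.5 TPM to 30.8, 27.7 and 32.4 TPM (log2 change 1.03, SE 0.082, adjusted p = 6.12e-05). Stim2, which responds to smaller losses of ER calcium (chromosome 5, 53998499 to 54121057, plus strand), rose from 18.2, 17.5 and 22.1 TPM to 32.5, 29.9 and 26.0 TPM (log2 change 0.59, SE 0.12, adjusted p = 0.00397). Orai1 (chromosome 5, 123015074 to 123030456, plus strand) fell from 41.9, 41.2 and 42.7 TPM to 35.7, 35.8 and 34.0 TPM. The step was small beside that of the sensors but larger than the spread of the libraries (log2 change -0.25, SE 0.053, adjusted p = 0.00553). Of the related channels, Orai2 rose from 24.8 ± 2.88 to 34.8 ± 3.88 TPM (log2 change 0.47, adjusted p = 0.00824) and Orai3 fell from 18.4 ± 0.683 to 7.46 ± 0.142 TPM (log2 change -1.20, adjusted p = 1.26e-05; SD, n = 3 each).

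Transcript length and chromosome moved with several of these changes. The median 1151 change ran from -0.095 for the shortest class of transcripts to 0.28 for the longest, the class that holds the 3 receptors, Atp2b1 and Atp2b4. Centred on genes of like length, Itpr3 (0.098, adjusted p = 0.299) and Atp2b4 (0.42, adjusted p = 0.105) were no longer called and Atp2b1 dropped to 0.23 (adjusted p = 0.0414). The median change was 0.31 over chromosome 17, which holds Itpr3, and 0.34 over chromosome 10, which holds Atp2b1. Centred per chromosome, Itpr3 stood at 0.18 (adjusted p = 0.0228), Atp2b1 was not called (0.16, adjusted p = 0.105), Atp2a2 dropped to 0.26 (adjusted p = 0.00306) and Orai1 moved to -0.39 (adjusted p = 6.84e-04). Itpr1 (1.56 and 1.68), Atp2a3 (-3.43 and -3.27), Stim1 (0.89 and 1.06) and Stim2 (0.43 and 0.45) were called under both centrings, by length and by chromosome. So were Atp2a2 (0.26 in each) and Orai1 (-0.23 and -0.39). With the spread taken from all 18 libraries, Itpr3 (adjusted p = 0.228), Atp2a2 (0.316) and Atp2b1 (0.211) were not called. Mcu, on chromosome 10, stood at 0.067 as deposited (adjusted p = 0.581) and at -0.27 centred per chromosome (adjusted p = 0.0430). Whether length or chromosome had a part in these changes was not tested.

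**Figure D3:**
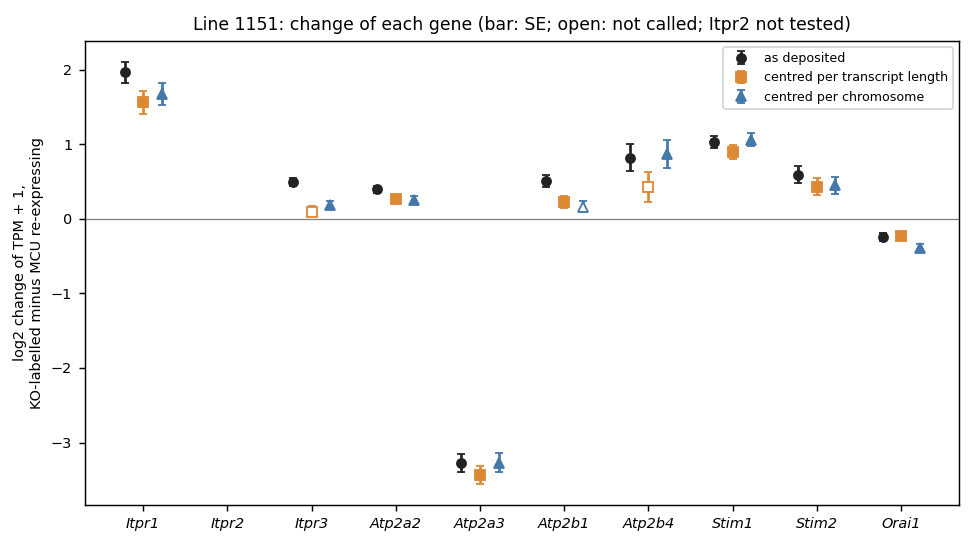
Change of log2(TPM + 1) in line 1151, knockout-labelled minus re-expressing (y axis), for each gene (x axis) as deposited, centred per transcript length and centred per chromosome, with SE bars and open symbols where limma made no call. Itpr1, Atp2a2, Stim1 and Stim2 stay above 0 and called in all 3, and Orai1 stays below 0 and called. Atp2a3 stays near -3.27 to -3.43, and Itpr3, Atp2b1 and Atp2b4 each lose the call in 1.

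The lists of other calcium pathway genes had rises and falls in 1151, as did the whole table, with 34% of genes called higher and 27% lower. Of 18 regulators of IP3 receptors tested, 7 rose and 8 fell (median log2 change 0.047). Itprip, an inhibitor of the receptors, rose from 18.02 ± 2.11 to 71.5 ± 2.60 TPM and Ahcyl1, which competes with IP3 for its site, from 69.5 ± 1.63 to 128.3 ± 13.6 TPM. Bok, a receptor-binding member of the Bcl-2 family, fell from 349 ± 6.18 to 62.9 ± 9.20 TPM, and Erlin2, which helps to degrade active receptors, from 42.8 ± 0.976 to 23.1 ± 1.82 TPM (SD, n = 3 each). Phospholipase C and IP3 metabolism had 9 rises and 5 falls among 17 tested genes (median 0.32). The thrombin receptor gene F2r rose from 45.3 ± 3.68 to 207 ± 14.6 TPM and the nucleotide receptor gene P2ry2 from 9.16 ± 0.470 to 23.9 ± 0.502 TPM, and the phospholipase genes Plce1 (log2 change -0.74) and Plcd3 (-0.27) fell.

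Of 8 regulators of SERCA pumps tested, 3 rose and 3 fell (median -0.14), beside 34% of all genes called higher and 27% lower. Tmem64 (log2 change 0.59) and the thioredoxin family gene Tmx2 (0.38) rose. Vmp1, which acts on SERCA at ER contacts, fell from 214 ± 10.1 to 124 ± 7.18 TPM and Dnajc10, an ER reductase that activates SERCA2, from 107 ± 4.21 to 63.0 ± 4.09 TPM (SD, n = 3 each). Among 10 regulators of store-operated entry 4 rose and 4 fell (median -0.13), beside the same shares of all genes. Unc93b1, a carrier of Toll-like receptors, was at 0 in each of the 3 libraries with MCU and at 13.5 ± 2.35 TPM in the knockout-labelled ones, so it passed the filter only through the latter and its count among the rises adds no support. Ubqln1 rose by a log2 change of 0.51. Cracr2b (log2 change -1.15) and Asph (-0.48), whose products include the ER protein junctate, fell.

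Of 19 ER calcium-binding proteins and leak channels 6 rose and 5 fell (median 0.095), near the shares of the whole table (34% and 27%), with Wfs1 (log2 change 0.79) and the translocon gene Sec61a1 (0.44) up and Tmbim1 (-1.0) and Nucb2 (-0.49) down. Among other plasma membrane channels and exchangers, 5 of 12 rose and 4 fell (median 0.17). The stretch-activated channel gene Piezo1 rose from 14.7 ± 0.736 to 27.8 ± 2.18 TPM and Bsg, which encodes a partner of PMCA pumps, from 822 ± 39.9 to 1287 ± 41.5 TPM, while the channel genes Trpm4 (log2 change -1.54) and Trpv4 (-1.40) fell (SD, n = 3 each). Of 15 genes of calmodulin, calcineurin and NFAT, 2 rose and 6 fell (median 0.060), beside the same 34% and 27% of all genes. The calcineurin subunit gene Ppp3ca rose by 0.30 on the log2 scale, a call lost without re-expressing replicate 2 (0.26, adjusted p = 0.0538) or 3 (0.27, adjusted p = 0.0557). Ppp3cb (-0.58) and Ppp3cc (-0.72) fell. The Golgi pump gene Atp2c1 fell as well (-0.31), and the muscle and neuronal relatives Ryr1, Ryr2, Ryr3, Atp2a1, Atp2b2 and Atp2b3 never exceeded 0.410 TPM in any of the 18 libraries.

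In 2838 none of the 10 genes separated the clones by label, which also held for nearly all genes tested, so it does not mark these genes out. On clone means, 2 labelled knockout against 2 labelled wild type, limma called 0 of 10, with 0 at an unadjusted p under 0.05 and a lowest adjusted p of 0.999. Over the whole table this test called 0.0763% of 11795 genes, with 662 genes at an unadjusted p under 0.05. The log2 differences were widest for Atp2b4 (-0.82, SE 0.46), Atp2a3 (0.66, SE 0.53), Stim2 (0.35, SE 0.28) and Atp2a2 (0.35, SE 0.21). Atp2b4 passed the filter in 2838 only through wild-type clone 15, where it was high. For Itpr1 (0.013, SE 0.35) and Orai1 (0.0052, SE 0.24) the differences were near 0 but with errors too wide to say that the labels are alike. Without clone 22 replicate 3, Atp2b4 stood at -0.94 (SE 0.42), Atp2a3 at 0.51 (SE 0.67), Stim2 at 0.35 (SE 0.21), Atp2a2 at 0.076 (SE 0.16) and Orai1 at 0.022 (SE 0.20). Itpr1 was at -0.41 (SE 0.20, adjusted p = 0.829) and Itpr3 at -0.15 (SE 0.44), and again none of the 10 was called, nor any other gene (0%). When both knockout-labelled clones had to differ from both wild-type clones with 1 sign, 0 of the 10 passed, against 1.01% of genes tested (3.88% without that library). For each of the 10 the 6 knockout-labelled and 6 wild-type-labelled libraries also overlapped, and 5.04% of genes tested did not overlap. Of the 119 pathway and marker genes tested on clone means, 0 were called.

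Pairs of single clones gave some calls, also within a label. The error of these tests is the spread of libraries within a clone, so they cannot be set against the test on clone means. Over the 6 pairs of clones and 10 genes, limma made 9 calls of 60 (14 under either of 2 other scalings, 23 without clone 22 replicate 3). Each pair shares clones with others, so the counts are not independent. The calls include those of Atp2b4, which passed the filter only through clone 15. The share of all genes called was 17.2% for clone 42 against clone 17, both labelled knockout, 10.7% and 6.49% for clone 17 against wild-type clones 15 and 22, 12.3% and 10.3% for clone 42 against the same, and 1.92% between the wild-type clones. Leaving out clone 22 replicate 3 made these shares 41.5%, 32.8%, 20.4%, 35.2%, 27.1% and 6.86%.

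Atp2a3 differed most between clones. It read 25.4, 28.2 and 28.7 TPM in clone 17 and 7.67, 7.04 and 6.79 TPM in clone 42. The wild-type clones held 5.43, 5.82 and 6.88 TPM (clone 15) and 15.3, 15.4 and 7.51 TPM (clone 22, replicate 3 last). Clone 17 was thus above every other 2838 library, while clone 42 overlapped clone 15. Clone 17 exceeded clone 15 by a log2 difference of 2.02 (SE 0.23, adjusted p = 3.32e-04) and clone 22 by 1.11 (adjusted p = 0.0170), and clone 42 was below clone 17 (-1.80, SE 0.23, adjusted p = 4.16e-04). The call against clone 22 was lost when any 1 library of clone 17 was left out (adjusted p of 0.0578, 0.0765 and 0.0741), and the other 2 were kept under every alternative run. Without clone 22 replicate 3, clone 17 exceeded clone 22 by 0.79 (adjusted p = 9.91e-04), and clone 22 also exceeded clone 15 (1.22, adjusted p = 3.92e-04) and clone 42 (clone 42 minus clone 22, -1.0, adjusted p = 1.69e-04).

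**Figure D4:**
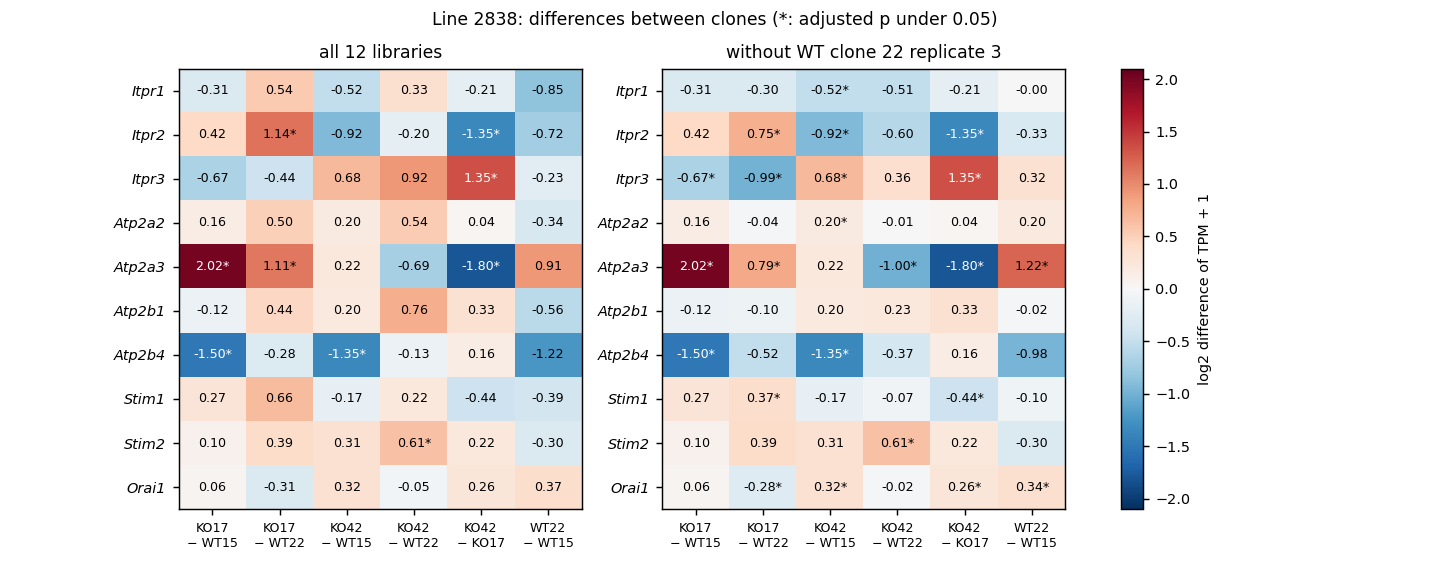
Differences of log2(TPM + 1) between 2838 clones (colour and printed value) for each gene (rows) and each of the 6 pairs of clones (columns), over all 12 libraries and without wild-type clone 22 replicate 3. Stars mark adjusted p under 0.05, of which there are 9 with all libraries and 23 without that one, and the contrast of clones 42 and 17 holds the widest differences for Itpr2 and Itpr3.

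Among the IP3 receptors, Itpr3 was lower and Itpr2 higher in clone 17 than in clone 42. Itpr3 read 35.3, 35.2 and 35.5 TPM in clone 17, 105.5, 94.6 and 77.5 TPM in clone 42, 49.6, 61.2 and 60.4 TPM in clone 15 and 72.4, 70.2 and 21.8 TPM in clone 22. Apart from the last library of clone 22, the wild-type clones lay between the knockout-labelled ones. Clone 42 exceeded clone 17 by 1.35 (SE 0.36, adjusted p = 0.0230), a call lost when any library of clone 17 (adjusted p of 0.0695, 0.0717 and 0.0667) or replicate 1 or 2 of clone 42 (0.0879 and 0.0718) was left out. Without clone 22 replicate 3 the SE was 0.11 (adjusted p = 1.00e-05), and Itpr3 was also called lower in clone 17 than in clones 15 (-0.67) and 22 (-0.99) and higher in clone 42 than in clone 15 (0.68). The genes of chromosome 17 moved with it: their median difference between clones 42 and 17 was 0.69 over 591 genes, and 0.77 over the 155 genes within 5 Mb of Itpr3. Over all libraries the chromosome 17 median was -0.39 for 17 minus 15, -0.31 for 17 minus 22 and 0.33 for 42 minus 15. Centred per chromosome, the Itpr3 difference between clones 42 and 17 was 0.64 (adjusted p = 0.153). For the same other pairs it was then -0.28, -0.10 and 0.36 over all libraries, where these pairs were not called before centring either. The link of Itpr3 to the chromosome was not tested further.

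Itpr2 read 5.16, 5.31 and 5.12 TPM in clone 17 and 1.56, 1.64 and 1.14 TPM in clone 42, with 2.47, 4.04 and 4.66 TPM in clone 15 and 2.50, 2.89 and 0.620 TPM in clone 22. Clone 17 was above every other 2838 library. The difference of clone 42 from clone 17 was -1.35 (SE 0.31, adjusted p = 0.0115, and -1.25 with adjusted p = 0.0503 without clone 42 replicate 3). The median over genes within 5 Mb of Itpr2 was -0.35. Clone 17 also exceeded clone 22 (1.14, SE 0.31, adjusted p = 0.0497), but this call stood at the threshold and was lost in 9 of the 12 fits that leave out 1 library (adjusted p up to 0.160) and with a pseudocount of 0.1 (0.0791). Without clone 22 replicate 3 it was 0.75 (adjusted p = 0.0255), and Itpr2 was then also lower in clone 42 than in clone 15 (-0.92, adjusted p = 0.00283). Itpr1 read 6.31, 7.55 and 5.73 TPM in clone 42 and 8.65, 8.35 and 6.19 TPM in clone 17. Its values were 7.61, 11.2 and 10.7 TPM in clone 15 and 9.56, 9.79 and 0.845 TPM in clone 22, and no pair was called over all libraries. With clone 22 replicate 3 left out, Itpr1 was lower in clone 42 than in clone 15 (-0.52, adjusted p = 0.0314). As shares of the receptor family, Itpr2 made up 10.8% ± 0.231 in clone 17 and 1.44% ± 0.124 in clone 42, against 5.19% ± 1.01 and 3.04% ± 0.416 in clones 15 and 22 (SD, n = 3 each; 2.96% and 3.49% in clone 22 without replicate 3).

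**Figure D5:**
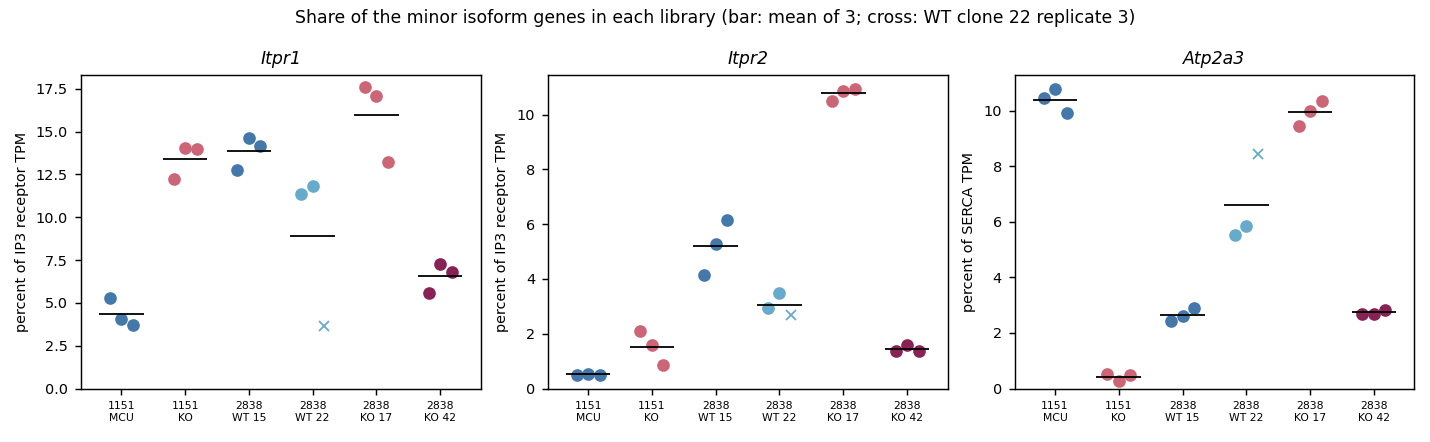
Share of Itpr1 and Itpr2 in the TPM of the 3 IP3 receptor genes and of Atp2a3 in the TPM of Atp2a2 and Atp2a3 (y axes, percent), in every library by group, with bars for the mean of 3 and a cross for wild-type clone 22 replicate 3. The Atp2a3 share is 10.4% with MCU and 0.421% in knockout-labelled 1151 cells, and 9.94% in clone 17 and 2.74% in clone 42.

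The housekeeping pumps differed less. Atp2a2 was the most abundant of the 10 genes in every group, from 217 to 277 TPM in the 2838 libraries other than clone 22 replicate 3 (81.4 TPM), and Atp2b1 lay between 25.9 and 42.2 TPM with the same library at 9.28 TPM. Neither was called in any pair over all libraries, and without that library Atp2a2 was slightly higher in clone 42 than in clone 15 (0.20, adjusted p = 0.0482). Atp2b4 was highest in clone 15, at 2.45, 2.27 and 3.08 TPM, against 0.391, 0.186 and 0.224 TPM in clone 17 and 0.0905, 1.42 and 0.0603 TPM in clone 42. In 2838 Atp2b4 passed the filter only through clone 15, where it was high, so its calls there add no support. It was called lower than clone 15 in clone 17 (-1.50, SE 0.32, adjusted p = 0.0118) and in clone 42 (-1.35, SE 0.32, adjusted p = 0.0176). The first call was lost without clone 17 replicate 2 (adjusted p = 0.0510) or with a pseudocount of 0.1 (0.0546), and the second without clone 15 replicate 3 (0.0656) or clone 42 replicate 1 (0.0811) or 3 (0.0837). Both were called without clone 22 replicate 3 (adjusted p = 0.00290 and 0.00492). Clone 22, also labelled wild type, held 0.978, 0.671 and 0.103 TPM, within the range of the knockout-labelled clones. Its difference from clone 15 was -1.22 (adjusted p = 0.0862), which was called without clone 42 replicate 2 (adjusted p = 0.0338) and not without clone 22 replicate 3 (-0.98, adjusted p = 0.103).

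The store-operated entry genes varied within a narrow range in 2838. Stim1 read 11.4, 12.9 and 12.6 TPM in clone 17 and 7.92 to 10.2 TPM in the others but for clone 22 replicate 3, at 4.57 TPM. Stim2 lay between 8.04 and 14.3 TPM, and its 1 call, clone 42 above clone 22 (0.61, SE 0.17, adjusted p = 0.0434), was lost in 9 of the 12 fits that leave out 1 library (adjusted p up to 0.146) and under both other scalings (0.138 and 0.257), and kept without clone 22 replicate 3 (adjusted p = 0.0186). Orai1, whose short transcript did not follow the deviation of that library, read 30.5, 29.8 and 28.9 TPM in clone 15 and 29.4, 31.0 and 32.9 TPM in clone 17, which overlapped. Clones 22 (39.1, 36.7 and 40.7 TPM) and 42 (38.4, 36.8 and 37.0 TPM) also overlapped and were above both, so that the order did not follow the label. No Orai1 pair was called over all libraries. Without clone 22 replicate 3, Orai1 was called higher in clone 42 than in clones 15 (0.32) and 17 (0.26) and in clone 22 than in clone 15 (0.34), and lower in clone 17 than in clone 22 (-0.28). In the same fit Stim1 was higher in clone 17 than in clone 22 (0.37) and lower in clone 42 than in clone 17 (-0.44).

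The difference between the 1151 and the 2838 change was tested as a label-by-line interaction over 6 group means, and limma called 0 of the 10 genes (1.1% of 12458 genes tested). The widest differences were Atp2a3, at -3.94 (SE 1.28, unadjusted p = 0.0376, adjusted p = 0.322), and Itpr1, at 1.95 (SE 0.63, unadjusted p = 0.0364, adjusted p = 0.317), the 2 genes of the 10 with an unadjusted p under 0.05. Of all 12458 genes tested, 1738 were under that threshold, so this count does not mark these genes out. With clone 22 replicate 3 left out, Atp2a3 was at -3.78 (adjusted p = 0.284) and Itpr1 at 2.37 (adjusted p = 0.0684), and 1.27% of genes were called. The calls in 1151 and their absence in 2838 are thus not shown to differ. Line 1151 enters this test with 1 mean per label, and the error is that of the 2838 clones.

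For the most abundant gene of each role, the genes of most similar pattern were found by Pearson correlation of log2(TPM + 1), centred per line, over the 18 libraries. The points share line, batch and the deviating library, so r is a description. For Itpr3 they were Flywch1 and Rfc1 (both r = 0.974, and 0.963 without clone 22 replicate 3). For Atp2a2 they were Ankfy1 (0.988, then 0.943) and Lcor (0.987, then 0.917), and for Atp2b1 Marchf6 (0.976, then 0.907) and Atl3 (0.975, then 0.899). For Orai1 they were S100a4 (0.900, then 0.885) and Tk1 (0.895, then 0.879), with longest transcripts of 498 and 1440 bases. Those matched to the other 3 genes were at least 2943 bases long where a length was known.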

How the data were processed

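PolyA RNA of 18 libraries was measured in 6 groups of 3, with groups, clones, batches and replicate numbers taken from the labels. The authors deposited 1 table of TPM values for 35642 gene symbols. Salmon, DESeq2 and mm10 are named in the submitters' processing notes, and versions and annotation are not given in the sources used here. TPM are scaled to 1 total per library (998353 to 998961 here), so a rise in abundant genes lowers all others, and no counting interval can be given.

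The test was limma 3.58.1 (R 4.3.3) on log2(TPM + 1), with 1 as the pseudocount (trend in the variance prior, Benjamini-Hochberg adjustment over all genes tested, calls at an adjusted p under 0.05), on genes that reached 1 TPM in 3 or more of the libraries fitted. All changes are differences of log2(TPM + 1), so those of scarce genes are understated. Line 1151 was fitted over its 6 libraries. In 2838 the main test used clone means, 2 against 2, beside pairs of clones over 12 libraries, and an interaction used the 6 group means. The fits were tested on simulated data.

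Some label details and marker genes are not reported here. The 10 genes and the pathway and marker lists were chosen with earlier results of these data known. Named genes are all 10, Mcu, for each list up to 2 called rises and 2 called falls of largest size in 1151 where the higher group averaged 5 TPM or more, and the 2 genes most like the most abundant gene of each role. Positions and transcript lengths are those of GENCODE M21 (mm10), with 97.8% of genes matched, and promoters from RefSeq (GRCm38.p6). Alternatives were a pseudocount of 0.1, no filter, a filter on the mean (5 TPM), quantile normalization, median-of-ratios scaling, no trend, a replicate block, 18 libraries in 1 fit, and leaving out each library or clone. Centring per transcript length (in 20 bins) and per chromosome was chosen after seeing the data.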

Additional observations from a re-analysis of the deposited data

Results flagged for a closer look

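The genes Itpr2, Itpr3 and Atp2a3 differed between the clones 42 and 17, both labelled knockout, so that a difference from the wild-type clones depends on which of them is taken. Clone 42 minus clone 17 was -1.35 (adjusted p = 0.0115, limma) for Itpr2 and 1.35 (adjusted p = 0.0230, limma) for Itpr3. For Atp2a3 it was -1.80 (adjusted p = 4.16e-04, limma). Centred per chromosome, the Itpr3 difference was 0.64 (adjusted p = 0.153), and its call was lost in 5 of the 12 fits that leave out 1 library (adjusted p of 0.0667 to 0.0879). The Itpr2 call was lost in 1 of the 12 (adjusted p = 0.0503). All 3 libraries of 1 clone lay above all 3 of the other for each gene, but the genes were picked by these calls, so this adds no support. Of all genes tested, 17.2% were called between these clones (41.5% without clone 22 replicate 3). Mcu RNA differed between these clones by -3.27 on the same scale, and the part of Mcu in the 3 differences was not tested.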

How the results depend on the processing

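In 1151 the count of 7 rises stayed between 6 and 7, and the 2 falls between 1 and 2, when each library was left out. The rises were 8 with no filter, 6 with a mean of at least 5 TPM, 6 centred per chromosome, 5 centred per transcript length and 5 with 18 libraries in 1 fit. Itpr2, not tested in the main fit, is among the 8 with no filter and the 5 with 18 libraries. Those counts are therefore over another set of genes than the 7. In 2838 the clone-mean, all-pairs and interaction counts stayed at 0 calls in each direction under every alternative run, except 1 clone-mean rise without clone 42 (Atp2a3, 1.56), where the knockout-labelled arm is 1 clone that is assumed to vary like the others. The 9 calls over pairs of clones became 5 with a mean of at least 5 TPM, 14 with median-of-ratios scaling, 14 with quantile normalization, 19 with 18 libraries in 1 fit, 24 centred per transcript length, and 4 to 23 when each library was left out. The cause was not tested. Replicate numbers did not pair the samples (same-number correlations of -0.146 to -0.0287 in 1151 and -0.153 to 0.196 in 2838). With the replicate block there were 7 rises and 2 falls in 1151, 0 all-pairs calls and 7 calls over pairs of clones.

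Of 2415 values of single genes under an alternative, 2242 kept direction and side of the threshold, 57 lost the call, 59 gained one and 57 changed sign. No change of sign was in 1151, but lost calls were, 2 with 1 library left out and 13 under the other alternatives. The cause was not tested. On clone means, the changes of sign were, with median-of-ratios scaling, Itpr1 -0.029 and Orai1 -0.083; with quantile normalization, -0.025 and -0.055; centred per transcript length, -0.040 and -0.046; and centred per chromosome, -0.20 and -0.012, with Itpr2 at -0.11. Without clone 15 Orai1 was -0.18. Without clone 22 Itpr1 was -0.41 and Itpr2 -0.25. Without clone 17 Itpr1 was -0.091, Itpr2 -0.56 and Atp2a3 -0.24. Without clone 42 Itpr3 was -0.55 and Orai1 -0.12. With 1 library left out Itpr1 ranged from -0.41 to 0.23, Itpr2 from -0.088 to 0.23, Itpr3 from -0.15 to 0.27 and Orai1 from -0.015 to 0.024. Between clones, centring per transcript length gave Orai1 -0.010 (17 minus 15), Stim1 -0.041 (42 minus 22) and Itpr3 0.13 (22 minus 15), and quantile normalization gave Stim1 -0.017 (42 minus 22). Centring per chromosome gave Itpr1 -0.017 (42 minus 22), and Atp2a2 -0.24, Stim2 -0.055 and Orai1 -0.013 (42 minus 17). With 1 library left out, Stim2 ranged from -0.040 to 0.22 in 17 minus 15. In 17 minus 22 the ranges were Itpr1 -0.30 to 0.97, Atp2a2 -0.043 to 0.80 and Atp2b1 -0.10 to 0.71. In 42 minus 22 they were Atp2b4 -0.52 to 0.077, Itpr2 -0.60 to 0.034, Itpr1 -0.51 to 0.76, Atp2a2 -0.0077 to 0.83 and Stim1 -0.072 to 0.37. In 42 minus 17 they were Atp2a2 -0.025 to 0.099 and Atp2b4 -0.23 to 0.36, and in 22 minus 15 Itpr3 -0.52 to 0.32 and Atp2a2 -0.64 to 0.20. In the interaction Atp2b1 was -0.012 centred per transcript length and -0.022 per chromosome, Atp2a2 -0.055 per chromosome, and Atp2a2 -0.099 to 0.32 with 1 library left out. Depth was unknown, so precision at low TPM, as for Atp2b4 and Itpr2, could not be stated.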

Other observations

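The balance of Orai1 to sensor RNA differed between the 1151 groups, which restates calls already given for these genes. Orai2 and Orai3 are not counted in it. Orai1 is 1875 bases long and the sensors 4362 and 4934, in length classes with median 1151 changes of -0.042 and 0.155. The part of length in the ratio was not tested. Orai1 over the sum of Stim1 and Stim2, in TPM, was 1.25 ± 0.0466 with MCU and 0.589 ± 0.0292 in the knockout-labelled cells (SD, n = 3 each), and the ranges did not overlap. In 2838 the ratio was 1.43 ± 0.129 in clone 15, 2.44 ± 0.564 in clone 22 (2.12 and 2.11 without replicate 3), 1.31 ± 0.161 in clone 17 and 1.67 ± 0.0997 in clone 42. SERCA over IP3 receptor RNA was 2.37 ± 0.0610 and 1.77 ± 0.124 in 1151. In 2838 it was 5.72 ± 0.224 in clone 17 and 2.63 ± 0.187 in clone 42, with 3.27 ± 0.425 and 3.44 ± 0.342 in clones 15 and 22 (SD, n = 3 each; 3.29 and 3.19 in clone 22 without replicate 3). The widest gap lay between the clones labelled knockout, on either side of both wild-type clones. The SERCA over receptor ratio also restates values already given. Itpr3, on chromosome 17, made up 73.25% of receptor RNA in clone 17 and 92.0% in clone 42. The chromosome 17 median, clone 42 minus clone 17, was 0.69. The receptors lie in the longest class of transcripts and the SERCA genes in the next, with median 1151 changes of 0.279 and 0.155. The part of chromosome and length in this ratio was not tested, nor were the ratios themselves.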
